A study of Mus musculus with 8 samples.

Results

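The histone deacetylase genes are the target family of romidepsin. They were taken by symbol from a fixed list of 9 genes, and all 9 were found among the 12260 genes of the deposited table: Hdac1, Hdac2, Hdac3 and Hdac8 of class I, Hdac4, Hdac5 and Hdac7 of class IIa, and Hdac6 and Hdac10 of class IIb. All 9 passed the filter on low counts, with 150 to 15439 reads per library, and other members of the zinc-dependent family are not analysed here. Messenger RNA was sequenced from MBL2 cells, a T-cell lymphoma line of C57BL/6 mice induced by Moloney murine leukaemia virus. Cells were seeded at 70000 per well of 96-well plates and collected after 24 h with a single dose of talazoparib and romidepsin together (combination), of romidepsin alone or of talazoparib alone, or left untreated (control). Each of these 4 groups has 2 libraries, and no source used here states a dose. The labels do not say whether libraries of a group are separate cultures. The p-values therefore rest on library-to-library spread, which may be technical. All groups are the same line, and no non-malignant T cell or second lymphoma was analysed here.

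Histone deacetylases remove acetyl groups from lysines of histones and other proteins. The class I enzymes Hdac1 and Hdac2 work in the nucleus as the catalytic subunits of the Sin3, NuRD and CoREST complexes, Hdac3 works in the NCoR and SMRT complexes, and Hdac8 acts on the cohesin subunit Smc3. The class IIa proteins shuttle between nucleus and cytoplasm and repress genes bound by MEF2 factors. Hdac7 is known as the class IIa protein of thymocytes and T cells. Hdac6 deacetylates alpha-tubulin and Hsp90, and Hdac10 deacetylates polyamines. Romidepsin is a cyclic depsipeptide that inhibits mainly class I enzymes, by binding the zinc in their active site. Talazoparib is an inhibitor of PARP enzymes, which act in DNA repair, and traps them on DNA.

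The promoters of Hdac2, Hdac5 and Hdac7 are shown because these are the members called as falls with talazoparib by edgeR. The calls of Hdac5 and Hdac7 depended on single libraries, as given below. Each is the window of 250 bases before a RefSeq start (GRCm38.p6), written 5′ to 3′ on the gene's strand, with motif matches on either strand in capitals. They lie at chr10:36974294-36974543 (plus strand) for Hdac2, at chr11:102230173-102230422 (minus strand) for Hdac5 and at chr15:97844503-97844752 (minus strand) for Hdac7, the start at the 5′ end of the annotated gene among its 4 listed.
Hdac2: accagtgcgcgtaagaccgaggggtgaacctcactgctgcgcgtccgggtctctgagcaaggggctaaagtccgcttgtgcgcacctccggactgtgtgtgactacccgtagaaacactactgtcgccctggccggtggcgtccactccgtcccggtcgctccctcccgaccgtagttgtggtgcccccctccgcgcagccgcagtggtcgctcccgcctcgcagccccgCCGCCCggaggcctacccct
Hdac5: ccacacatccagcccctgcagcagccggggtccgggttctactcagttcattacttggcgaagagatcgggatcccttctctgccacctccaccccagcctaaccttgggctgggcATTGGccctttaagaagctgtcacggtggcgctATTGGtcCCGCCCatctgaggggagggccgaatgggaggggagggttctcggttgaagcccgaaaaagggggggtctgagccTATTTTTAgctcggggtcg
Hdac7: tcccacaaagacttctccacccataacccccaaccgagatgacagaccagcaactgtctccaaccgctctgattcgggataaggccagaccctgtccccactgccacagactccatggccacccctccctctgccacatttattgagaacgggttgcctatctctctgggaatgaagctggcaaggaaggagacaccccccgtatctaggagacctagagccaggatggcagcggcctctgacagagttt
The motifs searched were the GC box GGGCGG, the CCAAT box CCAAT, the E-box CACGTG and TATTTTTA, one spelling of the MEF2 element. They do not overlap each other in these windows. The Hdac5 window holds the MEF2 spelling once, with its first base 19 bases before the start, and 2.45% of all 32851 mouse promoter windows of this length hold it. It was not in the windows of the other 5 members with an entry, Hdac2, Hdac4, Hdac6, Hdac7 and Hdac8. GC boxes, held by 32.7% of all windows, were found once in Hdac2, once in Hdac5, 4 times in Hdac4 and 4 times in Hdac6, and in 1 of the 4 Hdac7 windows, which is not the one printed. CCAAT boxes, held by 33.8% of all windows, were found 2 times each in Hdac4, Hdac5, Hdac6 and Hdac8. The E-box, held by 6.02% of all windows, was in none of the 9 windows of the 6 members. A match is a description of the letters and shows no binding.

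In these cells the family was led by Hdac1. Levels between genes are compared as FPKM, which is scaled to transcript length and library depth. They averaged 180 ± 23.2 FPKM for Hdac1 over all libraries (SD, n = 8). Hdac2 averaged 66.7 ± 5.63 FPKM, Hdac7 averaged 62.9 FPKM and Hdac3 averaged 49.1 FPKM. Hdac5 followed with 25.2 FPKM, Hdac6 with 13.1 FPKM and Hdac8 with 12.1 FPKM, and Hdac4 and Hdac10 were lowest with 5.03 and 2.77 FPKM. Some neighbours in this order changed places from library to library. Hdac7 stood above Hdac2 in romidepsin 2, talazoparib 1, control 1 and control 2 and below it in the other 4 libraries, and the values of Hdac6 (11.6 to 14.3 FPKM) and Hdac8 (9.91 to 14.6 FPKM) overlapped. With reads per kilobase of annotated exons in place of FPKM, the order in control cells was the same for all 9 genes.

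**Figure D1:**
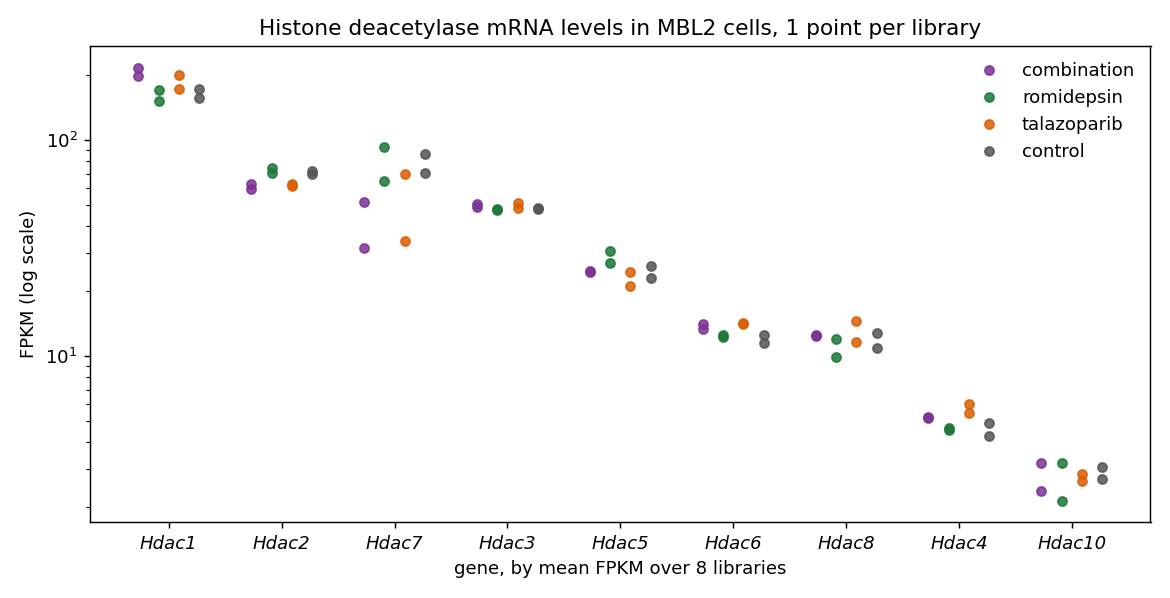
FPKM (log axis) of the 9 histone deacetylase genes in each library, ordered by their mean over 8 libraries, with colours for combination, romidepsin, talazoparib and control. Hdac1 lies above all others in every library, and Hdac7 spreads more widely than any of its neighbours.

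Summed over the 9 genes, the family had between 403 and 428 FPKM in the 8 libraries. These FPKM values do not carry the TMM scaling factors used for the counts. Those factors were 0.954 to 0.980 in the libraries without talazoparib and 1.03 to 1.04 in those with it. The sums therefore cannot show whether the family total differed with talazoparib. Class I genes made up 76.8% and 81.2% of this sum in the combination libraries and 72.0% and 80.5% with talazoparib. They made up 73.1% and 66.1% with romidepsin, and 68.8% and 72.7% in control. The class IIa share was 19.5% and 14.7% in the combination and 24.0% and 15.2% with talazoparib, against 23.4% and 30.2% with romidepsin and 27.8% and 23.6% in control. The talazoparib-treated and other libraries overlap in both shares, through talazoparib 1. The class IIb share was 3.77% and 4.10% in the combination and 4.00% and 4.24% with talazoparib, against 3.49% and 3.69% with romidepsin and 3.40% and 3.73% in control. It was the smallest share, and in it the 4 libraries with talazoparib lie above the 4 without it. Taken singly, 32.8% of all tested genes did not overlap between these libraries, and the figure for other shares was not computed. A share also depends on the other genes of the sum. Neither class IIb gene was called by edgeR between these libraries. The log2 fold changes were 0.09 for Hdac6 (adjusted p = 0.284) and -0.09 for Hdac10 (adjusted p = 0.706).

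Romidepsin changed the mRNA of no member past the test. By the quasi-likelihood test of edgeR, with p-values adjusted by Benjamini-Hochberg over all 11934 tested genes, 0 of 9 genes passed an adjusted p of 0.05 with romidepsin against control, where 0.0251% of all tested genes (3 genes) passed. Also 0 of 9 passed in the combination against talazoparib, again with 0.0251% of all genes called, and in the romidepsin main effect (4 libraries with and 4 without romidepsin), with 0.0251% called. No member had an unadjusted p under 0.05 in any of these comparisons, where 522, 510 and 876 of all tested genes did, and DESeq2 and limma called 0 of 9 in each. So few genes were called at all that the count says little about the members themselves, and their intervals say more. The 4 class I genes, the enzymes romidepsin is known to inhibit most, had log2 fold changes of -0.10 to 0.03 with romidepsin against control. Their 95% intervals lay within -0.44 and 0.25 on the log2 scale, or within 0.736-fold and 1.19-fold.

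Hdac1 had 355 and 315 CPM with romidepsin, against 329 and 352 CPM in control (CPM, counts scaled to library depth with TMM factors). The 2 groups overlap. Hdac3, the steadiest member, had 100 and 102 CPM with romidepsin and 104 and 100 CPM in control. Over all 8 libraries its CPM had a coefficient of variation of 2.79%, at the 0.218th percentile of all tested genes. The largest log2 fold change in this comparison was that of Hdac5, which had 110 and 124 CPM with romidepsin, against 107 and 96.6 CPM in control. The groups do not overlap, but the log2 fold change of 0.20 (SE 0.11, 95% interval -0.06 to 0.47, n = 2 each) had an adjusted p of 0.940 by edgeR. The interval of Hdac7 ran from -0.80 to 0.85 on the log2 scale, so levels of 0.575-fold to 1.798-fold are within its error.

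With talazoparib, 3 of the 9 genes were called as falls and none as a rise in the reported edgeR fit, and only the fall of Hdac2 was stable. In the talazoparib main effect (combination and talazoparib, 4 libraries, against romidepsin and control, 4 libraries), Hdac2, Hdac5 and Hdac7 fell by edgeR at an adjusted p under 0.05. Over all tested genes 30.2% passed in either direction, 13.7% by falling and 16.5% by rising, so 3 of 9 members is near the background. Of these calls over all genes 54.8% were rises, and 75.2% of the calls by limma on log2(FPKM + 1), which called 1 rise (Hdac1) and 2 falls (Hdac2 and Hdac7) among the members. The calls of Hdac5 and Hdac7 depended on single libraries, and that of Hdac2 did not. The count of called members was 1 without combination 2, romidepsin 2, control 1 or control 2, and 2 without combination 1 or talazoparib 2. Without talazoparib 1 it was 4, with Hdac1 added as a rise. In bulk RNA, fewer cells of a kind and less RNA per cell cannot be told apart.

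Hdac2 had 117 and 123 CPM in the combination and 122 and 123 CPM with talazoparib. It had 157 and 149 CPM with romidepsin and 154 and 145 CPM in control. All 4 libraries with talazoparib lie below all 4 without it, and each pair of libraries is close. The means were 121 ± 2.85 CPM with talazoparib and 151 ± 5.07 CPM without (SD, n = 4 each). The log2 fold change was -0.32 (SE 0.059, 95% interval -0.45 to -0.18, edgeR adjusted p = 0.00617), a level of 0.802-fold. The call held in all 16 alternatives, with log2 fold changes of -0.34 to -0.22 and adjusted p-values of 0.000141 to 0.0328. Hdac2 lies at chr10:36974544-37001889 (GRCm38), and no annotated gene overlaps it.

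**Figure D2:**
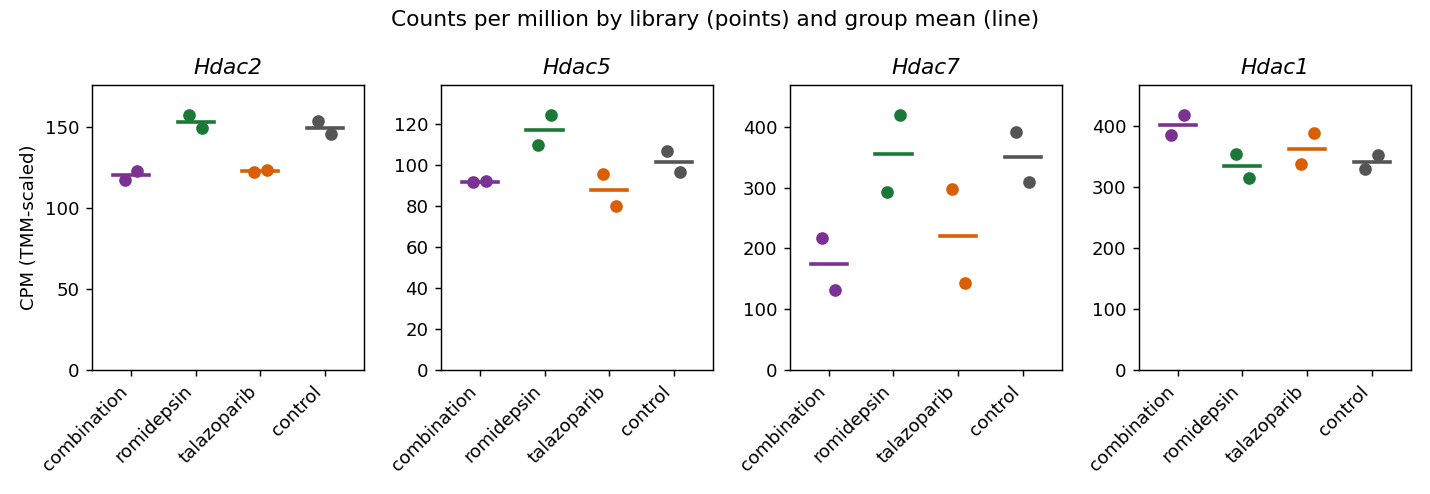
TMM-scaled CPM of Hdac2, Hdac5, Hdac7 and Hdac1 in each library (points) with the mean of the 2 libraries (line), for combination, romidepsin, talazoparib and control. Hdac2 with talazoparib lies between 117 and 123 CPM, below all other libraries, and the 2 libraries of each group lie far apart for Hdac7.

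Hdac2 was also the only member called in single comparisons. It fell in the combination against control (log2 -0.32, SE 0.083, edgeR adjusted p = 0.0353), where 17.5% of all tested genes were called. It fell in the combination against romidepsin (log2 -0.35, SE 0.083, edgeR adjusted p = 0.0349), where 11.7% were called. Without combination 1, combination 2, control 1 or control 2 the first had an adjusted p of 0.156, 0.110, 0.189 or 0.109, and without combination 1, combination 2, romidepsin 1, romidepsin 2, control 1 or control 2 the second had 0.140, 0.138, 0.130, 0.109, 0.0661 or 0.0659. Limma on log2(FPKM + 1) called neither (0.0741 and 0.0583), and nor did the fit with a replicate block (0.0575 and 0.0579), while DESeq2 called both (0.0146 and 0.00824). Without talazoparib 1 or talazoparib 2, Hdac7 passed as well in the combination against control (2 members), and Hdac5 and Hdac7 passed in the combination against romidepsin (3 members). In talazoparib against control, 0 of 9 members passed in edgeR, where 11.1% of all tested genes were called. There Hdac2 had a log2 fold change of -0.29 (adjusted p = 0.0630) and Hdac4 one of 0.23 (adjusted p = 0.168). These 2 had an unadjusted p under 0.05, DESeq2 called 1 member (Hdac2, adjusted p = 0.0413) and limma called 0. Without talazoparib 1, Hdac7 passed there (adjusted p = 0.0347).

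Hdac7 had the largest fold change and the widest spread. It had 218 and 132 CPM in the combination and 298 and 142 CPM with talazoparib, against 294 and 420 CPM with romidepsin and 392 and 310 CPM in control. Talazoparib 1 reaches the level of romidepsin 1, so the ranges overlap, while the other 3 libraries with talazoparib lie below all 4 without it. The main effect was a log2 fold change of -0.85 (SE 0.26, 95% interval -1.44 to -0.26, edgeR adjusted p = 0.0380), a level of 0.555-fold. Across 16 alternatives the log2 fold change ran from -1.17 to -0.63 and the call held in 10. It was lost without combination 2 (adjusted p = 0.121), romidepsin 2 (0.116), control 1 (0.116) or control 2 (0.0612), with robust variance estimates (0.0807) and by limma on log2(FPKM + 1) without the filter (0.0575).

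The spread of Hdac7 between libraries of 1 group was high for these data. Its log2 difference between the 2 talazoparib libraries was -1.07 (replicate 2 minus replicate 1), at the 97.0th percentile of all tested genes by absolute size. In the combination it was -0.73, at the 96.4th percentile. Romidepsin libraries differed by 0.51 the other way (90.3rd percentile) and control libraries by -0.34 (85.7th percentile). By edgeR its level was 0.498-fold in the combination against control (95% interval 0.280 to 0.887, adjusted p = 0.0921) and 0.490-fold in the combination against romidepsin (adjusted p = 0.101). In talazoparib against control it was 0.627-fold (95% interval 0.354 to 1.11, adjusted p = 0.254).

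The authors' deposited table gives Hdac7 a signed fold of -2.01 and an adjusted p of 0.0109 for the combination against control, where 16.2% of all genes in that table are below 0.05, and -2.04 and 0.0112 for the combination against romidepsin, where 12.5% are. For Hdac2 the authors' deposited table gives adjusted p-values of 0.111 and 0.0884 in the same comparisons. So edgeR called Hdac2 and not Hdac7 in these comparisons, and the authors' deposited table the other way round. Their sizes were alike, since the authors' deposited table gives Hdac2 a log2 value of -0.32 in the combination against control. Hdac7 lies at chr15:97792664-97844502 (GRCm38), and its last 29 exonic bases overlap Slc48a1 on the other strand.

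Hdac5 had 91.7 and 92.3 CPM in the combination and 95.9 and 80.2 CPM with talazoparib, against 110 and 124 CPM with romidepsin and 107 and 96.6 CPM in control. The 4 libraries with talazoparib lie below the 4 without it, but talazoparib 1 and control 2 are nearly level. The main effect was a log2 fold change of -0.28 (SE 0.081, edgeR adjusted p = 0.0341). The call held in 6 of 16 alternatives. It was lost by limma in its 3 forms (0.144 to 0.149), with the replicate block (0.0511), and without combination 1 (0.0893), combination 2 (0.0883), romidepsin 2 (0.111), talazoparib 2 (0.0696), control 1 (0.127) or control 2 (0.0601). On the FPKM scale the log2 value was -0.17 and limma's adjusted p was 0.145. Ranges of CPM without overlap between the 4 libraries with talazoparib and the 4 without were found for 2 of the 9 members, Hdac2 and Hdac5, and for 32.8% of all tested genes.

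The other 6 genes did not pass. Hdac1 had 385 and 418 CPM in the combination and 338 and 389 CPM with talazoparib, against 355 and 315 CPM with romidepsin and 329 and 352 CPM in control. Its main effect of talazoparib was a log2 fold change of 0.18 (SE 0.074, 95% interval 0.01 to 0.35, edgeR adjusted p = 0.105). Limma on log2(FPKM + 1) called this rise (0.27, adjusted p = 0.0281) and not the fall of Hdac5, so its 3 called members were Hdac1, Hdac2 and Hdac7. The call of Hdac1 was also made without talazoparib 1 (adjusted p = 0.0472). Hdac4, which carries class IIa repression in muscle and bone, had a value of 0.15 (adjusted p = 0.137), and all values lay between 36.8 and 47.6 CPM. Hdac3 and Hdac6 had the narrowest intervals, with log2 values of -0.05 and 0.09 and 95% intervals of -0.18 to 0.09 and -0.05 to 0.22. Hdac8 had a value of 0.06 and Hdac10 one of -0.09. The interval of Hdac10 was -0.46 to 0.28, from 150 to 302 reads per library.

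**Figure D3:**
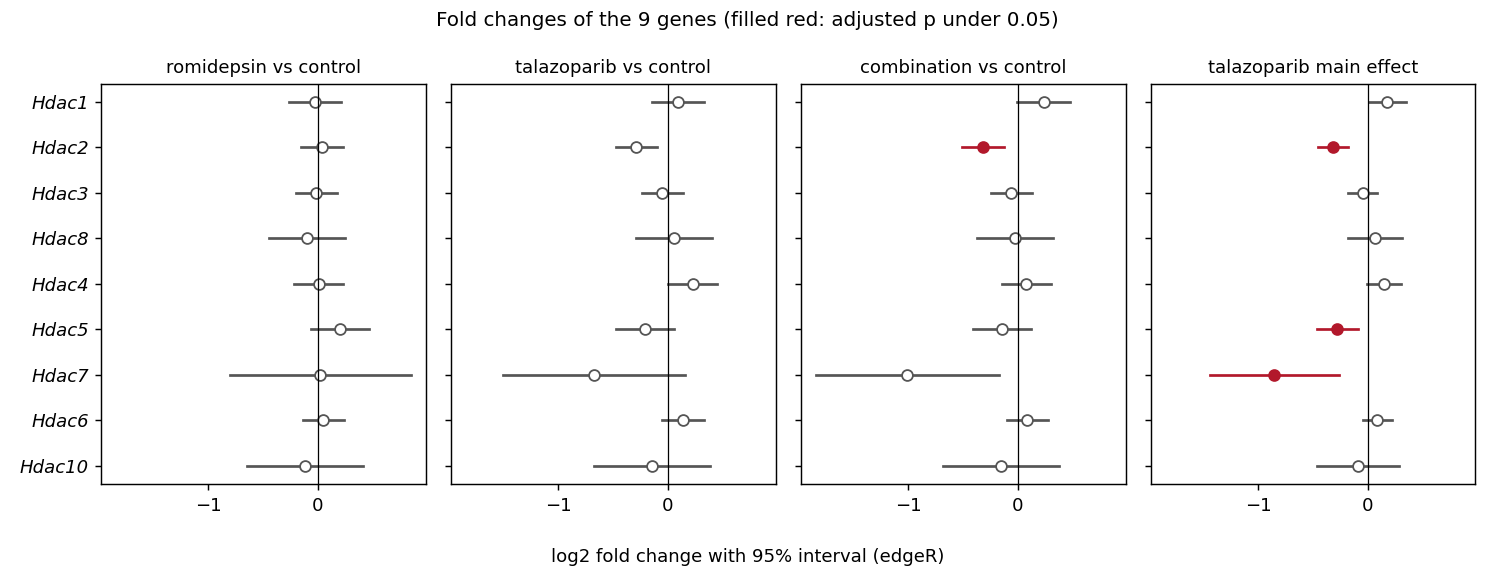
Log2 fold changes (points) and 95% intervals (lines) of the 9 genes by edgeR in romidepsin, talazoparib and combination against control, and in the talazoparib main effect of 4 libraries against 4. Filled red points passed an adjusted p of 0.05: Hdac2 in the combination, and Hdac2, Hdac5 and Hdac7 in the main effect.

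Total counts ran from 28419156 to 38913292 per library. T-cell markers were present, with 10 of 12 in the table, and their summed FPKM was 1938 to 2005 in the combination and 1950 to 1985 with talazoparib, against 2309 to 2369 with romidepsin and 2338 to 2415 in control. Cd3e, Thy1 and Lck were high in every library, and Cd4 was at 0.480 to 2.72 FPKM. Of 8 myeloid markers 3 were in the table (Lyz2, Itgam and Cd68), and they summed to 29.1 to 31.9 FPKM in the combination and 24.6 to 30.4 FPKM with talazoparib, against 12.7 to 15.7 FPKM with romidepsin and 9.27 to 11.6 FPKM in control. Of 6 B-cell markers 1 was listed (Cd79b), at 8.13 to 10.3 FPKM in the combination and 7.49 to 8.03 FPKM with talazoparib, against 3.73 to 4.24 FPKM with romidepsin and 3.14 to 3.55 FPKM in control. Of 7 erythroid markers 2 were listed, at 3.99 to 4.26 FPKM in the combination and 3.602 to 3.89 FPKM with talazoparib, against 2.48 to 2.91 FPKM with romidepsin and 2.48 to 3.05 FPKM in control. Of 7 stromal markers 4 were listed, at 58.5 to 67.2 FPKM in the combination and 55.5 to 69.5 FPKM with talazoparib, against 64.3 to 67.9 FPKM with romidepsin and 73.0 to 78.7 FPKM in control. The T-cell sum was lower, and the myeloid, B-cell and erythroid sums higher, in all 4 libraries with talazoparib than in the 4 without it. The T-cell sum follows mostly Tcf7, a transcription factor of T cells, which had 275 and 319 FPKM in the combination and 267 and 291 FPKM with talazoparib, against 583 and 577 FPKM with romidepsin and 611 and 628 FPKM in control. In the talazoparib main effect by edgeR, 3 of the 10 T-cell markers fell (Tcf7, Cd3d and Thy1), 2 rose (Cd4 and Cd247), and their median log2 fold change was -0.09. The stromal markers also went both ways. Acta2, which makes up most of their sum, fell by 0.71 on the log2 scale (adjusted p = 0.000660), while Pdgfra rose by 0.99 (adjusted p = 0.000821) and Pdgfrb by 0.94 (adjusted p = 0.00333). All 3 myeloid markers, Cd79b and Epor rose. The talazoparib main effect of the members and of the lists divides the libraries in the same way. The part of these markers in those calls was not tested. The ribosomal RNA transcript Rn45s took 0.520% and 0.394% of reads in the talazoparib libraries, against 0.135% to 0.235% in the other 6, and its part was not tested either.

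The interaction term, which tests whether the combination departs from the sum of the single drugs on the log2 scale, was called for 0 of 9 members by edgeR, where 0.0168% of all tested genes (2 genes) passed. No member had an unadjusted p under 0.05, and 154 of all genes did. DESeq2 and limma also called 0 of 9. Intervals were wide for Hdac7, from -1.52 to 0.81 on the log2 scale, and narrower for the class I genes, within -0.48 and 0.51.

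Hdac1 and Hdac2 are close paralogs that share complexes, and their proportions did not overlap between libraries with and without talazoparib. The adjustment over all pairs given below could not have passed this pair alone. The combination libraries held 3.29 and 3.41 reads of Hdac1 per read of Hdac2, and the talazoparib libraries held 2.77 and 3.15. The ratio was 2.26 and 2.11 with romidepsin and 2.14 and 2.42 in control. The 4 libraries with talazoparib all lie above the 4 without it. In FPKM the ratio was 3.34 and 3.46 in the combination and 2.82 and 3.20 with talazoparib, against 2.30 and 2.15 with romidepsin and 2.18 and 2.46 in control. The log2 ratio of counts was higher by 0.50 with talazoparib, with a two-sided exact permutation p of 0.0286 (n = 4 each), the smallest this design can give. All 36 pairs of members were compared in this way. Of them 13 did not overlap and had this p. Pairs share members, so these are not 13 separate results. The share among other pairs of genes was not computed, and 32.8% of all tested genes did not overlap singly. With Benjamini-Hochberg adjustment over the 36 pairs their adjusted permutation p was 0.0791, so 0 passed 0.05. With this smallest p, pairs could pass only if many reached it together, so the adjustment cannot decide about any 1 pair. The largest difference among the 13 was that of Hdac4 to Hdac7, at 1.05 on the log2 scale.

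**Figure D4:**
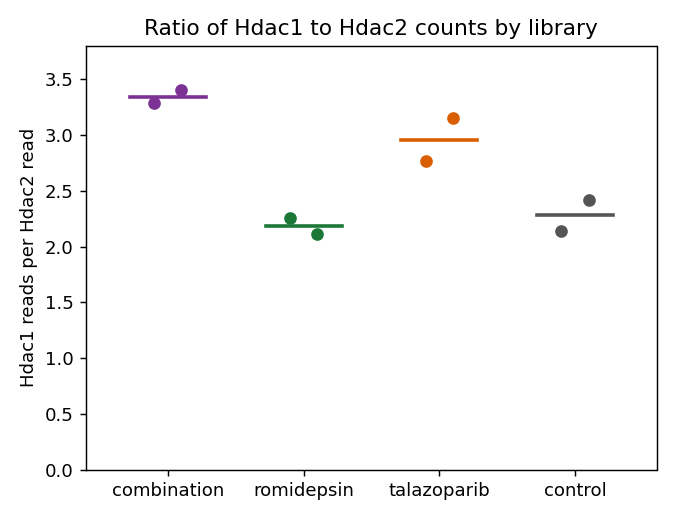
Reads of Hdac1 per read of Hdac2 in each library (points) with the mean of the 2 libraries (line), for combination, romidepsin, talazoparib and control. The 4 libraries with talazoparib lie between 2.77 and 3.41 and the 4 without it between 2.11 and 2.42.

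The proteins that the deacetylases work with were followed as 10 lists holding 119 tested genes. In the talazoparib main effect 11 of these rose and 25 fell by edgeR on counts. These 36 of 119 are about the share called in either direction over all tested genes (30.2%). By direction the lists did not stand at the background, with fewer rises and more falls than over all tested genes (16.5% rising and 13.7% falling). On the FPKM scale the balance was the other way, with 18 rises and 9 falls by limma on log2(FPKM + 1). Which direction had more calls in the lists thus depends on the scaling. The calls over all tested genes also moved towards rises on this scale. Limma called 2705 rises and 892 falls there, so 75.2% of its calls were rises, against 54.8% by edgeR. The limma counts of single lists below stand beside this balance and not beside the edgeR shares. DESeq2 on counts called 10 rises and 25 falls in the lists, and 52% of its calls over all tested genes were rises. By each tool, rises were a smaller part of the calls in the lists than of those over all tested genes. They were 11 of 36 list calls by edgeR, 10 of 35 by DESeq2 and 18 of 27 by limma. This difference was not tested. With romidepsin against control, in the combination against talazoparib and in the romidepsin main effect 0 of the 119 were called, while 3, 7 and 6 had an unadjusted p under 0.05. DESeq2 called 0, 1 and 1 of them in these comparisons, and limma called 0 in each. The interaction was called for 0 of the 119, with 2 at an unadjusted p under 0.05 and 0 calls by DESeq2 or limma. The values in the next paragraphs are log2 fold changes of the talazoparib main effect by edgeR, with adjusted p-values over all tested genes, whose median was -8e-04.

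Among the partners of Hdac1 and Hdac2, 5 of the 15 tested genes of the Sin3 complex fell and 1 rose, beside 13.7% and 16.5% of all tested genes, with a median of -0.14. Sin3a, the scaffold of the complex, had 72.9 and 68.7 CPM in the combination and 75.6 and 75.2 CPM with talazoparib, against 90.3 and 94.8 CPM with romidepsin and 93.7 and 92.4 CPM in control. The groups do not overlap, and the fall of -0.35 (adjusted p = 0.00422) held in all 16 alternatives. Rbbp7, a histone-binding subunit that Sin3 and NuRD share, fell by 0.27 (adjusted p = 0.00903), and Brms1 rose by 0.28 (adjusted p = 0.0452). The count of falls was 3 without control 1 or combination 2, and the rise of Brms1 was called in only 1 of the 8 fits that leave out a library, the one without talazoparib 1. Limma on log2(FPKM + 1) called 3 falls in the Sin3 list, 2 in the NuRD list and 0 in the CoREST and MiDAC list. In the NuRD complex 4 of 12 fell and none rose, beside the same shares, with a median of -0.07. The 4 became 2 without combination 2, romidepsin 1, control 1 or control 2. Of these 4 falls, Rbbp4 and Rbbp7 are also counted among the 5 of the Sin3 list, so the 2 counts are not separate. Mbd3, which joins the deacetylase and remodelling parts of NuRD, fell by 0.31 (adjusted p = 0.00738) and did so in all alternatives. In the CoREST and MiDAC complexes 2 of 13 rose and 2 fell, near the shares of all tested genes. Of these, Trerf1 (0.38, adjusted p = 0.00705) was called in every fit that left out a library. The rise of Elmsan1 (0.29, adjusted p = 0.0315) was called without talazoparib 1 or combination 2 and lost without any of the other 6. The 2 falls, of Kdm1a (-0.24, adjusted p = 0.0307) and Rcor2 (-0.22, adjusted p = 0.0473), became 1 without romidepsin 1 and 0 without any other library except talazoparib 1.

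Among the partners of Hdac3, 3 of the 7 genes of the NCoR and SMRT complexes fell and none rose, beside 13.7% and 16.5% of all tested genes, with a median of -0.16. Tbl1xr1, a subunit that recruits the degradation machinery in co-repressor exchange, had 44.9 and 45.2 CPM in the combination and 43.2 and 39.0 CPM with talazoparib. It had 57.3 and 58.5 CPM with romidepsin and 62.4 and 63.8 CPM in control, and its fold change was -0.49 (adjusted p = 0.00148). Cops2, a subunit of the COP9 signalosome, fell by 0.46 (adjusted p = 0.00215). Both falls held in all 16 alternatives, and Hdac3 itself was the steadiest member.

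The cohesin cycle is the setting of Hdac8, which removes the acetyl group that Esco enzymes place on Smc3. Of its 12 genes 6 fell and 1 rose, beside 13.7% and 16.5% of all tested genes, with a median of -0.22. Stag1, a cohesin subunit, had 21.6 and 24.7 CPM in the combination and 27.5 and 32.4 CPM with talazoparib, against 50.0 and 45.2 CPM with romidepsin and 55.2 and 64.7 CPM in control. All 4 libraries with talazoparib lie below the 4 without it (-1.02, adjusted p = 0.000418). Esco2, an acetyltransferase of Smc3, had 118 and 112 CPM in the combination and 112 and 111 CPM with talazoparib. It had 81.6 and 88.9 CPM with romidepsin and 86.7 and 82.2 CPM in control, a rise of 0.42 (adjusted p = 0.00269). Smc3 fell by 0.28 (adjusted p = 0.00959) and Hdac8 itself was not called. The fall of Stag1 and the rise of Esco2 held in all 16 alternatives, and limma on log2(FPKM + 1) called 2 falls in this list in place of 6. The count of 6 falls became 2 without combination 2 or control 1 and 3 without romidepsin 1 or control 2, and the 1 rise became 2 without talazoparib 1.

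Class IIa proteins are moved out of the nucleus when kinases phosphorylate them and 14-3-3 proteins bind them. Of 20 tested genes of this list 3 rose and 2 fell, beside 16.5% and 13.7% of all tested genes, with a median of 0.04. The kinase gene Prkd2 had 184 and 189 CPM in the combination and 211 and 191 CPM with talazoparib, against 123 and 139 CPM with romidepsin and 140 and 130 CPM in control. It rose by 0.55 (adjusted p = 0.00152), and Camk1d, another kinase gene, rose by 0.72 (adjusted p = 0.00180). Ywhae, which encodes 14-3-3 epsilon, had 415 and 407 CPM in the combination and 424 and 404 CPM with talazoparib. It had 577 and 566 CPM with romidepsin and 614 and 591 CPM in control, a fall of 0.51 (adjusted p = 0.000735). These 3 calls held in all 16 alternatives. Limma on log2(FPKM + 1) called 6 rises and 1 fall in this list. Ywhah fell by 0.20 (adjusted p = 0.0365), and this call was kept without talazoparib 1 and lost without any of the other 7 libraries. The 2 falls became 1 without combination 2, romidepsin 1, talazoparib 2, control 1 or control 2.

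Hdac6 removes the acetyl group that Atat1 places on alpha-tubulin. Of 12 tested genes of its list 1 rose and 2 fell, beside 16.5% and 13.7% of all tested genes, with a median of 0.07. Atat1 had 1.504 and 1.98 CPM in the combination and 1.86 and 2.24 CPM with talazoparib, against 1.10 and 0.870 CPM with romidepsin and 1.13 and 1.26 CPM in control. The groups do not overlap (0.80, adjusted p = 0.0217), but the call was lost without combination 2, romidepsin 2, control 1 or control 2. The Hsp90 genes Hsp90ab1 and Hsp90aa1 fell by 0.29 (adjusted p = 0.00700) and 0.39 (adjusted p = 0.0203). Limma on log2(FPKM + 1) called 3 rises and 0 falls in this list. The fall of Hsp90aa1 was lost without combination 1, combination 2, romidepsin 1 or control 2. In polyamine metabolism, the setting of Hdac10, 1 of 10 genes rose (Oaz2, 0.18, adjusted p = 0.0481) and 1 fell (Sms, -0.23, adjusted p = 0.0196), beside the same shares, with a median of -0.19. The call of Oaz2 was kept without talazoparib 2 and lost without any of the other 7 libraries. That of Sms was lost without combination 1, combination 2, romidepsin 2 or control 1, and a second gene fell without talazoparib 1 or talazoparib 2.

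Other enzymes act on the same acetyl-lysines. Of the 7 sirtuins, deacetylases that use NAD in place of zinc, 1 fell (Sirt3, -0.43, adjusted p = 0.0452) and none rose, beside 13.7% and 16.5% of all tested genes, with a median of 0.13, whereas limma on log2(FPKM + 1) called 2 rises and 0 falls. That call was kept without talazoparib 1, where 2 sirtuins fell, and lost without any of the other 7 libraries. Of 14 histone acetyltransferases 2 rose and 1 fell, beside 16.5% and 13.7% of all tested genes, with a median of -0.06. Kat2b had 58.4 and 55.2 CPM in the combination and 58.6 and 64.0 CPM with talazoparib, against 40.6 and 39.5 CPM with romidepsin and 44.4 and 47.5 CPM in control (0.46, adjusted p = 0.00221), and this rise held in all 16 alternatives. The call of Ncoa2 (0.30, adjusted p = 0.0465) was kept without talazoparib 1 or combination 2, and that of Kat5 (-0.40, adjusted p = 0.0381) without romidepsin 2 or talazoparib 2. Both were lost without any of the other 6 libraries. Limma on log2(FPKM + 1) called 3 rises and 0 falls among the acetyltransferases, and 1 rise and 0 falls in the polyamine list.

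**Figure D5:**
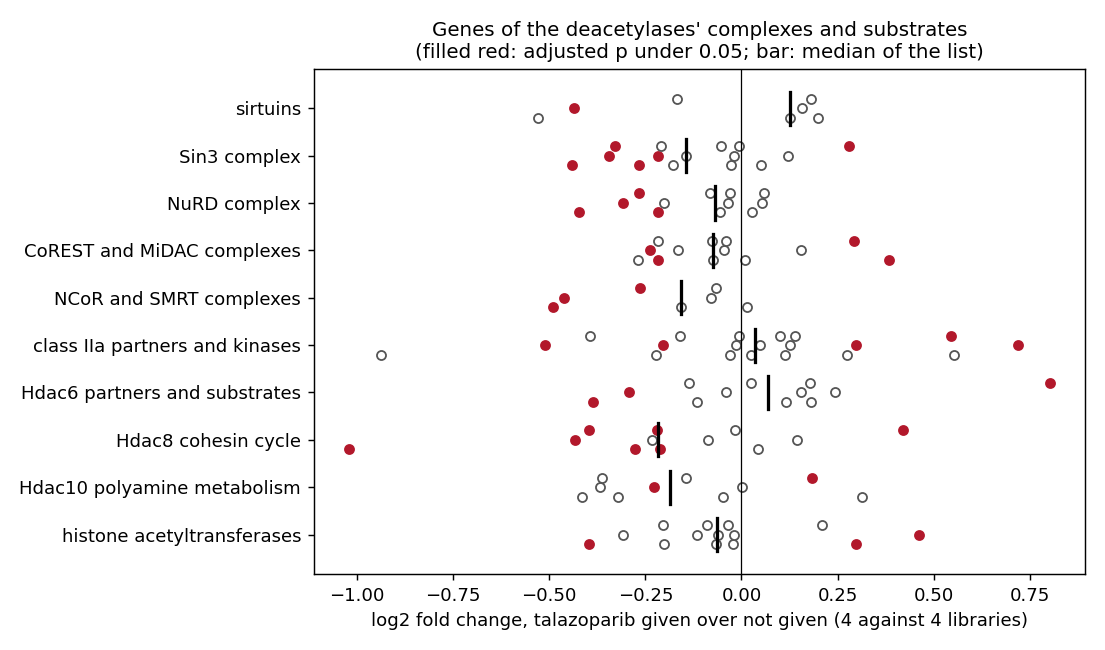
Log2 fold changes of the talazoparib main effect (4 libraries with against 4 without) for each tested gene of the 10 lists, with filled red points for an adjusted p under 0.05 by edgeR and a bar at the median of each list. The cohesin list has the lowest median (-0.22) and Stag1 the lowest called value (-1.02).

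The genes most like a called member were taken as the 5 with the smallest root mean square difference in log2 CPM, centred on each gene's own mean, over the 8 libraries and among 9417 genes with a mean of at least 2 FPKM. For Hdac2, whose own root mean square was 0.16, these were Snx5, Thy1, Mtfr1, Klhl9 and Sdhb, with differences of 0.036 to 0.039. Snx5 had 209 and 203 CPM in the combination and 214 and 212 CPM with talazoparib, against 262 and 251 CPM with romidepsin and 260 and 255 CPM in control. For Hdac5, with 0.18 of its own, they were Dnaaf2, Anxa2, Igsf8, Wdtc1 and Scpep1, with differences of 0.030 to 0.046. For Hdac7, with 0.59 of its own, they were Stc2, Gbe1, Fcgbp, Rdm1 and Zc3h6, with differences of 0.12 to 0.17. Stc2 had 54.0 and 38.3 CPM in the combination and 72.7 and 39.2 CPM with talazoparib, against 90.0 and 120 CPM with romidepsin and 120 and 90.3 CPM in control. Like Hdac7, it was lower in talazoparib 2 than in talazoparib 1 and higher in romidepsin 2 than in romidepsin 1. Since Stc2 was picked by its closeness to Hdac7 over these same libraries, this likeness is no separate result.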

How the data were processed

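RNA of 8 libraries (4 groups, 2 each) was sequenced after TruSeq Stranded mRNA preparation, per the labels' protocols. Reads were processed with HISAT2 and StringTie on mm10, per the submitters' processing notes; versions, settings and the strand option of the counting are stated by no source used here. The deposited table holds whole-number read counts per gene, which the authors did not normalise, and FPKM values scaled to length and depth, per the file headers. The authors' log2 normalised values, their signed fold changes (read as a score, a fall being minus the inverse ratio) and their p-values stand in the same deposited table, per the file headers. The fold changes and p-values were used only where the authors' deposited table is named. Every listed gene has at least 1 read in all libraries.

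Counts were filtered with filterByExpr (11934 of 12260 genes left). They were normalised by TMM, with factors of 0.954 to 0.980 in the libraries without talazoparib and 1.03 to 1.04 in those with it. The factors thus divide the libraries as the talazoparib main effect does, and FPKM values do not carry them. The counts were tested with edgeR 4.0.16 (R 4.3.3) in 1 fit of all libraries with 1 term per group. This left 4 residual degrees of freedom and gave a biological coefficient of variation of 12.9%. P-values were adjusted over all tested genes, with calls at 0.05. DESeq2 1.42.0 and limma 3.58.1 on log2(FPKM + 1) were alternatives. The genes most like a member were found on log2 CPM with a prior count of 2. The depth of 28419156 to 38913292 reads puts at least 150 reads behind each member's value. Named genes are all members, the up to 2 genes per list and direction with the smallest p among those called, given here for the talazoparib main effect, and the 5 genes most like each called member. The members and lists were chosen with earlier results of these data known. Gene coordinates are from GENCODE (GRCm38) and promoters from RefSeq.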

Additional observations from a re-analysis of the deposited data

How the results depend on the processing

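Alternatives were other size factors, DESeq2, no filter on low counts, limma on FPKM, robust variance estimates, only the compared groups, a replicate block, and leaving out each library. A fit of only the compared groups was made for the pairwise comparisons alone. In romidepsin against control, the combination against talazoparib, the romidepsin main effect and the interaction, 0 of 9 members were called under each alternative run. The count of called members was 1 by DESeq2 in talazoparib against control, against 0 in the reported fit, and ran from 0 to 1 with a library left out. In the combination against control it was 1 as reported, 0 by limma on log2(FPKM + 1), with and without a filter, and on log2(FPKM + 0.1), 2 with only the compared groups (Hdac7 added), and 0 to 2 with a library left out. In the combination against romidepsin it was likewise 1 as reported, 0 by the 3 forms of limma, 2 with only the compared groups, and 0 to 3 with a library left out. In the talazoparib main effect it was 3, and it was 2 with robust variance estimates and 2 by limma on log2(FPKM + 1) without the filter, and ran from 1 to 4 with a library left out. With the replicate block it was 0 in both comparisons of the combination and 2 in the main effect, where Hdac5 was lost (adjusted p = 0.0511), and it changed no other call of a member. In the lists it removed the falls of the sirtuins and acetyltransferases and the rise in polyamine metabolism (0 each), and left 1 rise and 1 fall in the CoREST and MiDAC list and 1 acetyltransferase rise. DESeq2 called 2 sirtuin falls, 1 fall in the CoREST and MiDAC list and 0 polyamine rises, and without the filter 0 sirtuins and 1 gene of the CoREST and MiDAC list fell. Deviations of same-numbered libraries correlated at -0.33 to 0.29. Whether the numbers mark a shared batch was not tested, and these correlations cannot decide it. The numbers serve to name the libraries and to form the replicate block.

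Some small values changed sign. By limma, the log2 value of Hdac5 in the combination against control was 8e-04, 9e-04 or 8e-04, and the main effect of talazoparib was 0.052, 0.053 or 0.052 for Hdac3 and 0.0027, 0.0056 or 0.0027 for Hdac10. With a library left out, Hdac1 in talazoparib against control ran from -0.0124 to 0.190, Hdac4 in the combination against control from -0.0133 to 0.161, and the main effect of talazoparib from -0.0271 to 0.144 for Hdac8 and from -0.217 to 0.0743 for Hdac10. The causes were not tested. FPKM values carry a median shift of 0.08 (log2) with talazoparib. CPM values were scaled with TMM factors, which even out such a shift, and theirs was -0.0024. FPKM values were not scaled with these factors. The low counts of Hdac10 and the spread of Hdac7 leave wide intervals with 2 libraries a group.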
